A study of Mus musculus with 4 samples.

Results

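The megalin endocytosis machinery was described here through 10 genes: the receptor megalin (Lrp2), its co-receptor pair cubilin (Cubn) and amnionless (Amn), the receptor-associated chaperone Lrpap1, the adaptor Dab2, the recycling factors Ehd1, Ehd3 and Rab11fip3, the endosomal chloride transporter Clcn5 and the inositol phosphatase Ocrl. The genes were picked by symbol, and all 10 were present in the gene lists of the 4 libraries, among 27998 genes listed for cells and 48816 for nuclei. The tissue was the stria vascularis (SV), the secretory epithelium of the cochlear lateral wall, from CBA/J mice at postnatal day 30, for which the labels give no treatment and no altered genotype. There were 3 droplet captures of dissociated cells and 1 capture of nuclei, each from an SV suspension pooled over several mice, so that no value belongs to a single animal. After removal of poor barcodes and likely doublets, 377, 1315 and 1462 cells and 9754 nuclei were kept, with median depths of 3878 to 5054 unique molecular identifiers (UMIs, counted molecules) per deposited barcode in the cell captures and 1561 in nuclei. At most 32 barcodes were shared by any 2 libraries, 2.025% of the smaller one.

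Megalin is a very large endocytic receptor of the LDL receptor family that sits on the apical face of absorptive epithelia, where it takes up filtered proteins, carrier-bound vitamins and hormones. In the kidney proximal tubule it works with cubilin, which amnionless carries to the surface, and its cytoplasmic tail is linked to clathrin coats by Dab2. Lrpap1 keeps the receptor free of ligand during its folding, EHD proteins and Rab11 effectors return it to the surface, and the CLC exchanger Clcn5 and the phosphatase Ocrl keep early endosomes working, as the tubular diseases caused by their loss show. In the SV, marginal cells face the endolymph and are the epithelial layer in which megalin is known, and loss of LRP2 causes hearing loss in people and mice.

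Cell types were assigned by clustering and by marker genes that did not include any of the 10 members, and each name means cells like that type ("marginal-like" and so on, written without the suffix). The cells comprised 123 marginal, 986 intermediate, 64 basal and 39 spindle/root cells, beside 84 fibrocytes, 100 erythroid cells, 33 B cells, 28 neutrophils and 15 macrophages. The nuclei comprised 2605 marginal, 1470 intermediate, 688 basal, 216 spindle/root, 180 fibrocyte, 95 Reissner's membrane, 462 erythroid, 205 B cell and 72 neutrophil nuclei. All 7 marginal markers, among them the potassium channel genes Kcnq1 and Kcne1, were highest in marginal cells and in marginal nuclei, and all 7 spindle/root markers were highest in spindle/root cells, with 6 of 7 in spindle/root nuclei. Of the 9 intermediate markers, 7 were highest in intermediate cells and 7 in intermediate nuclei. Of the 6 basal markers, 5 were highest in basal cells and 4 in basal nuclei. A further 1471 cells and 3669 nuclei had almost no Malat1, a nuclear RNA, and were left unnamed.

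On the mouse genome (GRCm38, GENCODE vM21) Lrp2 lies on the minus strand at chr2:69424340-69586065 with 80 merged exons, Lrpap1 on the minus strand at chr5:35091501-35105766, and Ehd3 on the plus strand at chr17:73804134-73832094. No annotated gene overlapped these 3, nor Amn, Ehd1 or Ocrl. Genes on the opposite strand overlapped Cubn, Dab2, Rab11fip3 and Clcn5. Of the 6 genes that overlapped Clcn5, 1 was on the opposite strand and the others were microRNA genes on its own strand. How the counting handled such overlaps was not given in the sources used here, so the values of these 4 genes are less certain. The promoters of Lrp2 and Lrpap1 are shown because the levels of these genes moved together across cell types. The sequences are from RefSeq (GRCm38.p6), run 5' to 3' on the strand of the gene, and end where the first annotated exon begins. Capitals mark the GC box letters GGGCGG on either strand.
Lrp2: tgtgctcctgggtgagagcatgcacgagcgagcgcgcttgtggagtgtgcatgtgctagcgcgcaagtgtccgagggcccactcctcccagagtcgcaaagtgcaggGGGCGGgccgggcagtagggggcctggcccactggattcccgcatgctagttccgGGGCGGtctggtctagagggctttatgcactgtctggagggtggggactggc
Lrpap1: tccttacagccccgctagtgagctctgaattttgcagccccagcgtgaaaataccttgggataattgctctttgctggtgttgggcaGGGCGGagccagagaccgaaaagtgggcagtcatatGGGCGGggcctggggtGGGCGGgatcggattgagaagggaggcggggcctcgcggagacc
The Lrp2 stretch spans chr2:69586066-69586279 and held 2 GC boxes, and the Lrpap1 stretch spans chr5:35105767-35105949 and held 3. Of 32851 promoter windows, 27.6% held this motif when cut to the 214 bases of the Lrp2 stretch and 21.5% when cut to the 183 bases of the Lrpap1 stretch. The motifs AAGGTCA (bound by estrogen-related receptors) and CACGTG (the E-box) were searched on both strands and these letters were in neither stretch. They were in 3.60% and 4.80% of windows of 214 bases, respectively. The RefSeq window of Ehd3 lies wholly inside an annotated exon and is not shown.

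Lrp2 was a marginal cell gene in every capture. Its level, in UMIs per 1000000 UMIs of the type (CPM), was 2530, 2584 and 2691 in the marginal cells of captures 1, 2 and 3, and 1006, 1142 and 1113 in spindle/root cells. In intermediate cells it was 35.0, 49.5 and 26.9 CPM, and in basal cells 19.4, 12.1 and 6.89 CPM. The 4 types did not overlap in any capture, in the order marginal, spindle/root, intermediate and basal. Each of the 123 marginal cells held Lrp2, with 3 to 74 UMIs per cell and a median of 29. In the 33 B cells, which should lack the gene, there were 0 Lrp2 UMIs, which allows a level of up to 19.9 CPM (3 counts, counting error only). As a share of the level in marginal cells, Lrp2 was at 0.275% in the 100 erythroid cells and 0.208% in the 28 neutrophils. Fibrocytes were at 1.37%, beside 1.46% in intermediate cells and 0.465% in basal cells, where there were 7 Lrp2 UMIs. Thinned to 1000 UMIs per cell, 87.8% of marginal, 28.2% of spindle/root, 3.04% of intermediate and 0% of basal cells held an Lrp2 UMI, against unthinned shares of 100%, 56.4%, 18.9% and 9.38%.

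**Figure D1:**
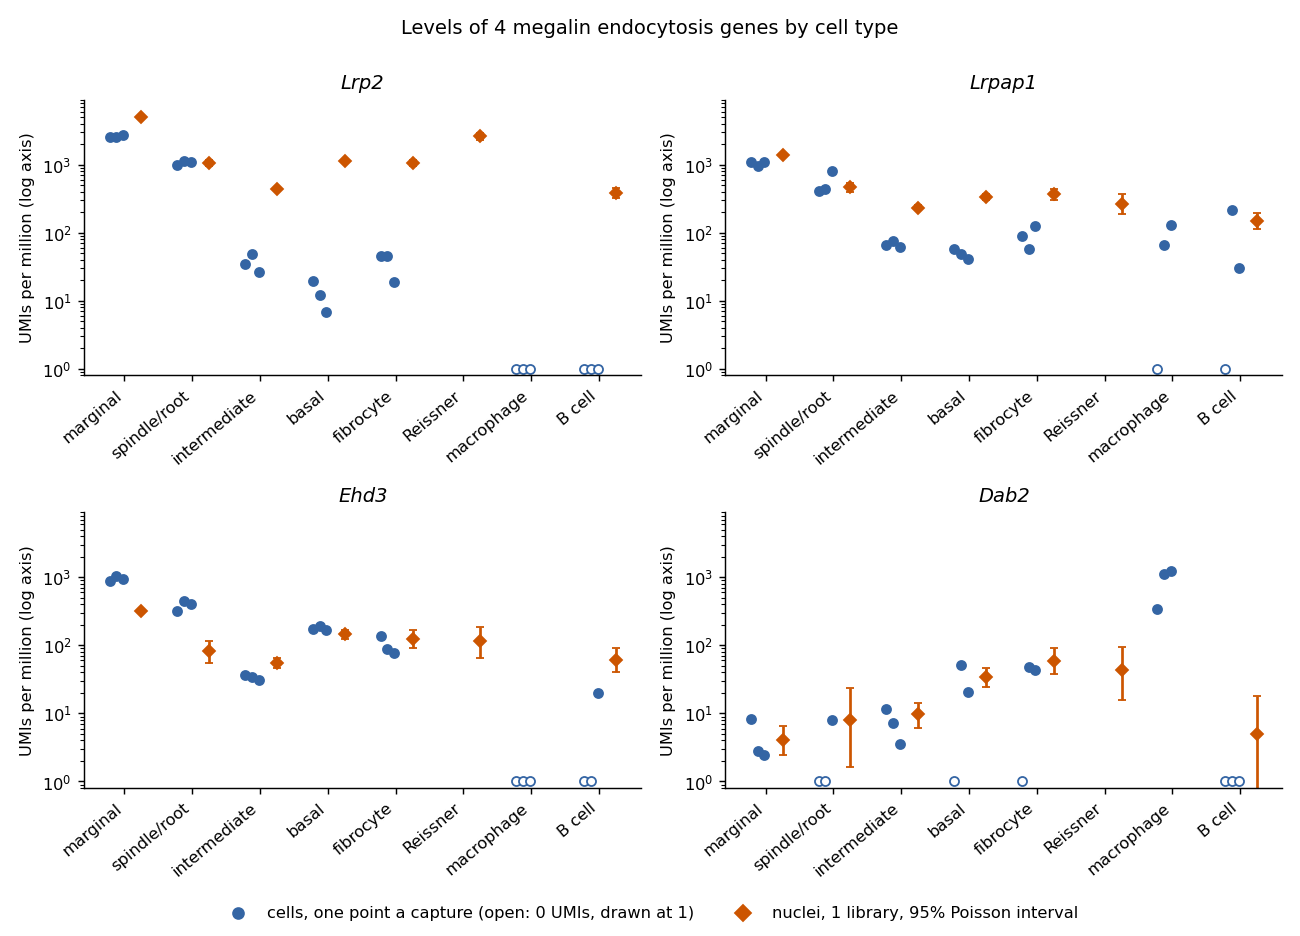
Levels of Lrp2, Lrpap1, Ehd3 and Dab2 in CPM (log axis) by cell type, with 1 point for each capture of cells open where there were 0 UMIs, and a diamond with its 95% Poisson interval for the 1 nucleus library. Lrp2, Lrpap1 and Ehd3 are highest in marginal cells in all 3 captures, while Dab2 is highest in macrophages at 338, 1106 and 1245 CPM.

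For each type the UMIs were summed per capture, and the 12 sums were tested with edgeR for each type against the mean of the logarithms of the other 3. Of the 10 members 6 had enough UMIs to be tested, Lrp2, Lrpap1, Ehd3, Ehd1, Rab11fip3 and Ocrl, and 4 did not, Cubn, Amn, Dab2 and Clcn5. Captures are pools, so the p-values measure the spread between captures and not between animals. In marginal cells 3 of the 6 tested members were higher at an adjusted p under 0.05 and 0 were lower, where 17.6% of all 5053 tested genes were higher and 16.2% lower. These were Lrp2, by 4.95 ± 0.15 on the log2 scale (± SE, adjusted p = 4.9e-34), Lrpap1 with 3.00 ± 0.14 and Ehd3 with 2.75 ± 0.12. In intermediate cells the same 3 were lower, beside 21.9% of all genes, with log2 fold changes of -2.81 ± 0.36 for Lrp2, -1.85 ± 0.19 for Lrpap1 and -3.31 ± 0.16 for Ehd3, and 0 members were higher, beside 20.1% of all genes. In basal cells 4 were lower, beside 16.7% of all genes: Lrp2 by -5.36 ± 0.33, Lrpap1 by -2.84 ± 0.26, Ocrl by -1.63 ± 0.44 and Ehd3 by -0.45 ± 0.18, the last with an adjusted p of only 0.046 in edgeR. In spindle/root cells 4 were higher, beside 17.5% of all genes: Lrp2 by 3.22 ± 0.18, Lrpap1 by 1.69 ± 0.18, Ehd3 by 1.00 ± 0.17 and Ocrl by 0.98 ± 0.37, and 0 were lower, beside 7.78%. The median log2 fold change of the 6 tested members was 1.66 in marginal cells, where the median over all tested genes was -0.0013.

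**Figure D2:**
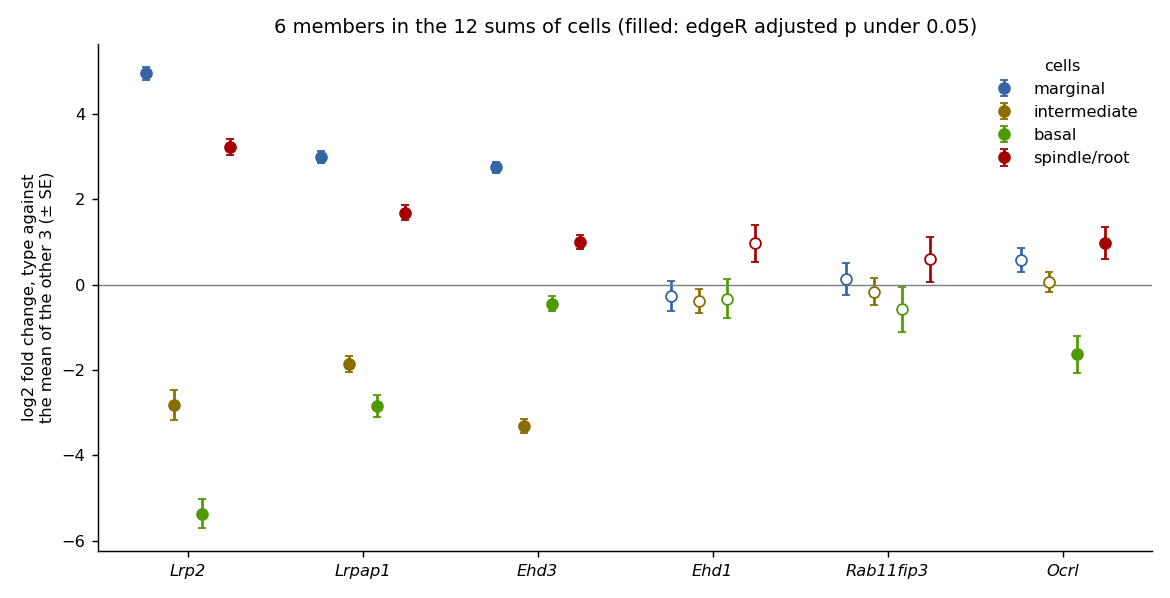
The log2 fold change of each of the 6 tested members in 1 cell type against the mean of the other 3, with its SE, from the edgeR fit of the 12 sums of cells. Filled points passed an adjusted p of 0.05. In marginal cells Lrp2, Lrpap1 and Ehd3 stand at 4.95, 3.00 and 2.75, while Ehd1 and Rab11fip3 have open points in all 4 types.

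Between single types, Lrp2 was 5.82 ± 0.19 log2 units higher in marginal than in intermediate cells, 7.73 ± 0.31 higher than in basal cells and 1.29 ± 0.16 higher than in spindle/root cells (edgeR adjusted p = 3.7e-32, 4.3e-28 and 6.0e-09). The lead over basal cells was between 4.06 and 4.94 in 5 alternatives, without doublet removal, with members allowed among the variable genes, with 20 principal components, with at least 500 genes and with types from marker UMIs. The lead over spindle/root cells was 3.74 without the marginal, basal and spindle/root cells richest in intermediate markers, and with at least 500 genes it was 1.22 and missed the threshold (edgeR adjusted p = 0.16). Lrp2, Lrpap1 and Ehd3 were also lower in intermediate than in spindle/root cells, beside 22.4% of all genes, Lrp2 by -4.53 ± 0.20. The step from spindle/root to marginal cells was also passed by Lrpap1 (0.98 ± 0.18) and Ehd3 (1.31 ± 0.17), beside 10.2% of all genes. At the lower end, Lrp2 was 1.91 ± 0.48 log2 units higher in intermediate than in basal cells (edgeR adjusted p = 0.00085), while that step for Lrpap1 was 0.74 ± 0.31 and missed the threshold (edgeR adjusted p = 0.052). The basal level of Lrp2 rested on 7 UMIs. In the 5 alternatives named above, the marginal lead over intermediate cells was 5.37 to 5.84, larger than that over basal cells. The order of intermediate and basal cells for Lrp2 was thus reversed there.

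The 123 marginal cells fell into 2 clusters that differed in how much intermediate cell RNA they carried. In the larger cluster of 84 cells the summed level of the 9 intermediate markers was 8610 CPM, with Lrp2 at 2328, Lrpap1 at 806 and Ehd3 at 1011 CPM. In the smaller cluster of 39 cells that summed level was 1139 CPM, with Lrp2 at 3748, Lrpap1 at 1964 and Ehd3 at 937 CPM. Both clusters therefore held all 3 genes at 806 CPM or more, and the part of the intermediate RNA in the lower Lrp2 and Lrpap1 levels was not tested. The larger cluster also had a median depth of 13029.5 UMIs against 6582, and Kcne1 at 1012 against 2316 CPM. Whether its cells were mixtures of cell types was not tested.

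The spindle/root level of Lrp2 was carried by a few cells. A split made after the values were seen, and given without a test, sorted the 39 spindle/root cells by what else they held. The 10 cells with at least 3 UMIs of the marginal genes Kcne1 and Kcnq1 held 87.1% of all Lrp2 UMIs of this type, at 2067 CPM (95% Poisson interval 1862 to 2288), and 97.5% of its Ehd3 UMIs, at 859 CPM. The 12 cells with at least 3 UMIs of Epyc, a proteoglycan gene among the markers, held 2 Lrp2 UMIs, both in 1 cell, and 3 Ehd3 UMIs. The other 17 cells, 13 of which held Anxa1, had Lrp2 at 480 CPM (359 to 628) in 11 cells and Lrpap1 at 751 CPM (598 to 931) in 13 cells, but 1 Ehd3 UMI in all. So Lrp2 and Lrpap1 were present, and Ehd3 close to 0, in spindle/root cells with fewer than 3 UMIs of either kind of marker. The 10 cells also held Dct, the intermediate cell gene, at 3330 CPM, and their median depth was 17568.5 UMIs against 6629 and 6207 in the other groups. Whether the 10 cells were mixtures of cell types was not tested.

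**Figure D3:**
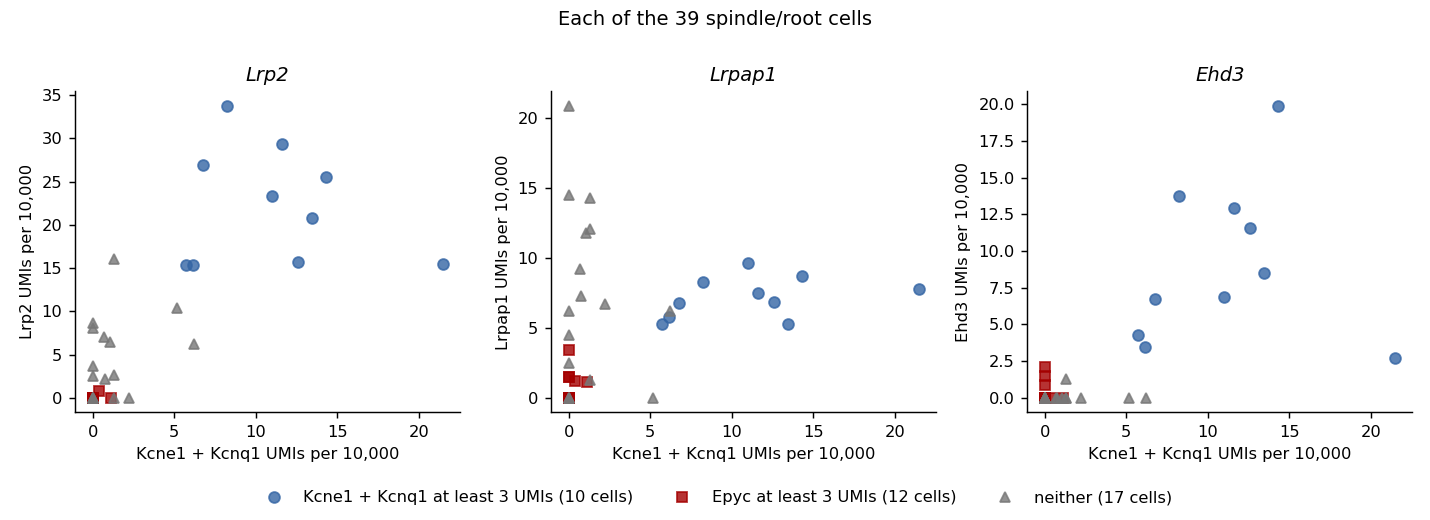
Each of the 39 spindle/root cells, with its UMIs of Kcne1 and Kcnq1 per 10000 on the horizontal axis and its UMIs of Lrp2, Lrpap1 or Ehd3 per 10000 on the vertical axis. The 10 cells with at least 3 Kcne1 and Kcnq1 UMIs all hold the 3 genes, the 12 Epyc cells lie at or near 0, and of the other 17, 11 hold Lrp2, 13 hold Lrpap1 and 1 holds Ehd3.

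An alternative added after the data were seen left out the intermediate, basal and spindle/root cells whose share of marginal marker RNA was above the median of their type, which left 10 and 7 spindle/root cells in captures 2 and 3 and too few in capture 1, so that more than the 10 cells changed. Lrp2 was then at 56.9 and 333 CPM, Lrpap1 at 185 and 902 CPM and Ehd3 at 28.4 and 19.6 CPM. In the edgeR fit against the other types, spindle/root cells then stood at 0.28 ± 0.46 for Lrp2, 1.28 ± 0.30 for Lrpap1 and -3.13 ± 0.61 for Ehd3. Marginal cells stood 4.21 ± 0.34 log2 units above spindle/root cells for Lrp2 in that fit. The spindle/root cells were left out by marginal marker RNA, after Lrp2 and Ehd3 had been seen to go with it, and all marginal cells were kept. Lower Lrp2 and Ehd3 were thus built into the choice, so no p-values are given. Leaving out in the same way the cells rich in intermediate markers gave 0.88 for Lrp2 (edgeR adjusted p = 0.095) and -3.19 for Ehd3 in spindle/root cells.

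In nuclei, a single library without a test, Lrp2 was again highest in marginal nuclei, at 5067 CPM (5001 to 5134) with a UMI in 99.3% of them. Levels of nuclei and cells come from separately processed tables and are set side by side without a comparison of size. Reissner's membrane nuclei, from the thin epithelium that roofs the endolymph, came next at 2605 CPM (2343 to 2888) with a UMI in 95.8%. Basal nuclei were at 1150 CPM, fibrocyte nuclei at 1063 and spindle/root nuclei at 1057, and their intervals overlapped. Intermediate nuclei were at 432 CPM and B cell nuclei at 385 CPM. A UMI of Lrp2 was found in 49.3% of B cell nuclei, which should lack the gene, at a median depth of 1550 UMIs. In intermediate nuclei the share was 47.1% at 1423.5, and these shares were not thinned to equal depth. Thinned to 1000 UMIs per nucleus, 97.8% of marginal, 52.9% of spindle/root, 52.8% of basal and 33.8% of intermediate nuclei held an Lrp2 UMI. As a percent of the marginal level, Lrp2 was at 4.13% in erythroid and 5.43% in neutrophil nuclei, which should lack it too. It was at 7.60% in B cell and 8.53% in intermediate nuclei. Without removal of doublets Lrp2 was at 730 CPM in intermediate and 1656 CPM in spindle/root nuclei.

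Marginal marker RNA was spread over the nuclei in a similar manner. The summed level of the 7 marginal markers, as a share of that in marginal nuclei, was 31.5% in basal, 24.1% in fibrocyte, 18.1% in spindle/root, 20.5% in intermediate and 8.50% in B cell nuclei, and no marker was at 0 in these types. The corresponding shares of Lrp2 were 22.7%, 21.0%, 20.9%, 8.53% and 7.60%. Lrp2 therefore stood inside the range of the single markers in each of these 5 types of nuclei. In Reissner's membrane nuclei the share of Lrp2 was 51.4% and that of the summed markers 28.4%, with single markers from 9.58% to 97.9%. In basal cells the Lrp2 share was 0.465% and in intermediate cells 1.46%, where the summed markers were at 13.2% and 21.6%. The part of free RNA in the nuclear values was not tested.

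**Figure D4:**
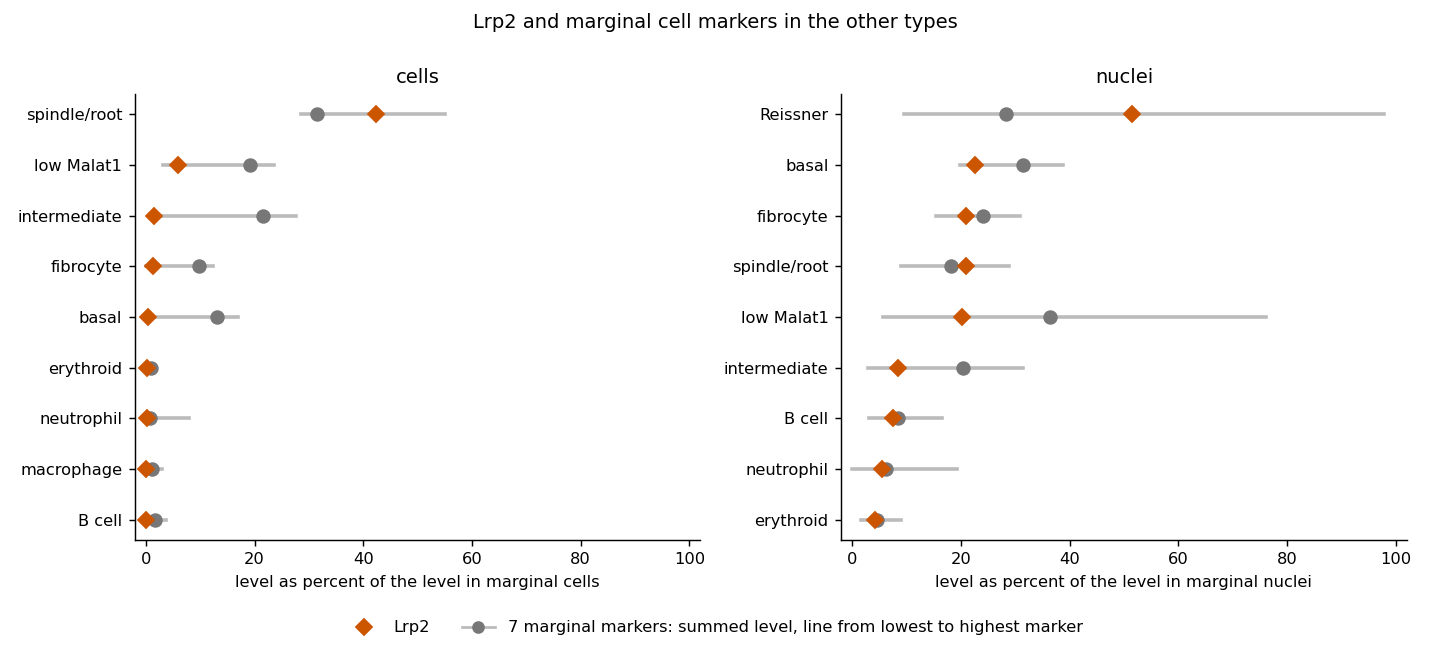
Level of Lrp2 (diamonds) and summed level of the 7 marginal markers (dots, with a line from the lowest to the highest single marker) in each other type, as a percent of the level in marginal cells (left) or marginal nuclei (right). Among cells Lrp2 is at 42.4% in spindle/root cells and at 5.89% or less in the other types, while in nuclei it is between 20.2% and 22.7% in basal, fibrocyte, spindle/root and low-Malat1 nuclei and 51.4% in Reissner's membrane nuclei.

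The cubilin partners of megalin were close to absent. Cubn had 0 UMIs in the 123 marginal cells, which allows up to 2.21 CPM (3 counts), and 2 UMIs in the 986 intermediate cells. In nuclei it had 9 UMIs in marginal (2.05 CPM, 0.936 to 3.89) and 13 in intermediate nuclei (5.22 CPM, 2.78 to 8.93). Amn had 1 UMI in intermediate cells and none in the other 3 types of cells, and 3 UMIs in marginal nuclei. No level of either gene was detectable in marginal cells at this depth, where Lrp2 had 3546 UMIs.

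Lrpap1, which escorts newly made megalin through the secretory pathway, followed the order of Lrp2. It was at 1099, 970 and 1103 CPM in the marginal cells of the 3 captures and at 405, 434 and 806 in spindle/root cells. Intermediate cells had 65.6, 76.0 and 61.7 CPM and basal cells 58.1, 48.6 and 41.4 CPM. Marginal and spindle/root cells overlapped neither with each other nor with the lower types. In nuclei Lrpap1 was at 1378 CPM (1344 to 1413) in marginal nuclei and 469 CPM (403 to 544) in spindle/root nuclei, with 233 in intermediate and 334 in basal nuclei. Reissner's membrane nuclei, second for Lrp2, had Lrpap1 at only 267 CPM (188 to 368), within the range of the other types.

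Dab2, the adaptor that couples megalin to clathrin, was not a marginal cell gene. There were 5 Dab2 UMIs in the 123 marginal cells, at 8.39, 2.82 and 2.42 CPM in the 3 captures, and 18 in the 2605 marginal nuclei (4.10 CPM, 2.43 to 6.47). Intermediate cells had 11.7, 7.17 and 3.51 CPM and overlapped with marginal cells. Basal cells had 0, 51.6 and 20.7 CPM, and spindle/root cells 0, 0 and 8.06 CPM. The 15 macrophages held 57 Dab2 UMIs, at 338, 1106 and 1245 CPM in captures with 3, 4 and 8 of these cells, with at least 1 UMI in 60% of them. Fibrocytes had 41.0 CPM (26.2 to 60.9) in cells and 59.8 CPM (37.5 to 90.5) in nuclei, and basal nuclei had 33.8 CPM (24.2 to 45.8). Basal and fibrocyte nuclei thus lay above marginal nuclei beyond the counting intervals. Dab2 did not pass the filter on low counts. When every gene with a UMI was tested, Dab2 was higher in basal cells than in the other types by 2.84 ± 0.60 (edgeR adjusted p = 4.6e-05) and lower in marginal than in basal cells by -3.004 ± 0.70 (edgeR adjusted p = 0.00024), although the basal cells of capture 1, 8 in number, held none.

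The EHD proteins are membrane-remodelling ATPases of the recycling compartment, and the 2 members differed. Ehd3 was at 877, 1057 and 960 CPM in marginal cells of the 3 captures, 319, 450 and 411 in spindle/root cells, 174, 194 and 165 in basal cells and 36.8, 33.7 and 31.2 in intermediate cells. No types overlapped, and basal cells stood 2.14 ± 0.22 log2 units above intermediate cells (edgeR adjusted p = 4.8e-12, beside 20% of all genes), the reverse of the order of Lrp2. In basal cells, 60.9% held an Ehd3 UMI, at a median depth of 7706 UMIs, against 6.06% of B cells at 2326. Nuclei kept marginal first with 324 CPM (308 to 342), followed by basal at 146 (125 to 169), fibrocyte at 125 (91.5 to 167), spindle/root at 82.2 (55.8 to 117) and intermediate at 55.5 (46.6 to 65.5). Ehd1, its close relative, was at 50.3, 21.2 and 16.9 CPM in marginal, 13.5, 20.8 and 20.3 in intermediate, 9.68, 33.4 and 13.8 in basal and 73.6, 38.4 and 48.4 in spindle/root cells. Those ranges overlapped between neighbours, and no type passed the test for Ehd1, the nearest being spindle/root cells (0.97 ± 0.44, edgeR adjusted p = 0.11). In spindle/root nuclei there were 2 Ehd1 UMIs, at 5.30 CPM (0.642 to 19.1).

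Rab11fip3, an effector that joins Rab11 vesicles to motor proteins, had few UMIs in cells and a clearer pattern in nuclei. It was at 21.0, 16.9 and 36.3 CPM in marginal and 36.8, 43.9 and 8.06 in spindle/root cells, with 15.4 to 18.9 in intermediate and 12.1 to 20.7 in basal cells, and no type passed the test. In nuclei it was at 244 CPM (197 to 299) in spindle/root, 224 (152 to 318) in Reissner's membrane, 118 (108 to 128) in marginal, 63.4 (50.1 to 79.3) in basal, 47.0 (38.9 to 56.3) in intermediate and 9.87 (2.69 to 25.3) in B cell nuclei. The spindle/root nuclei formed 2 clusters that differed in this gene. The 120 nuclei of the cluster with Epyc at 2280 CPM had Rab11fip3 at 364 CPM (289 to 452), and the 96 nuclei of the cluster with Anxa1 at 2931 CPM had 71.2 CPM (35.5 to 127). In cells no such excess was seen, with 1 Rab11fip3 UMI in the 12 Epyc cells (10.3 CPM, 0.262 to 57.6).

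The same 2 nuclear clusters separated the receptor in the other direction. Lrp2 was at 862 CPM (744 to 993) in the Epyc cluster and 1339 CPM (1163 to 1535) in the Anxa1 cluster, and Lrpap1 at 355 (281 to 442) and 634 (515 to 773). Among cells, too, Lrp2 and Lrpap1 were lowest in those with Epyc. These clusters were made without the 10 members, and the intervals cover counting error in 1 library only.

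**Figure D5:**
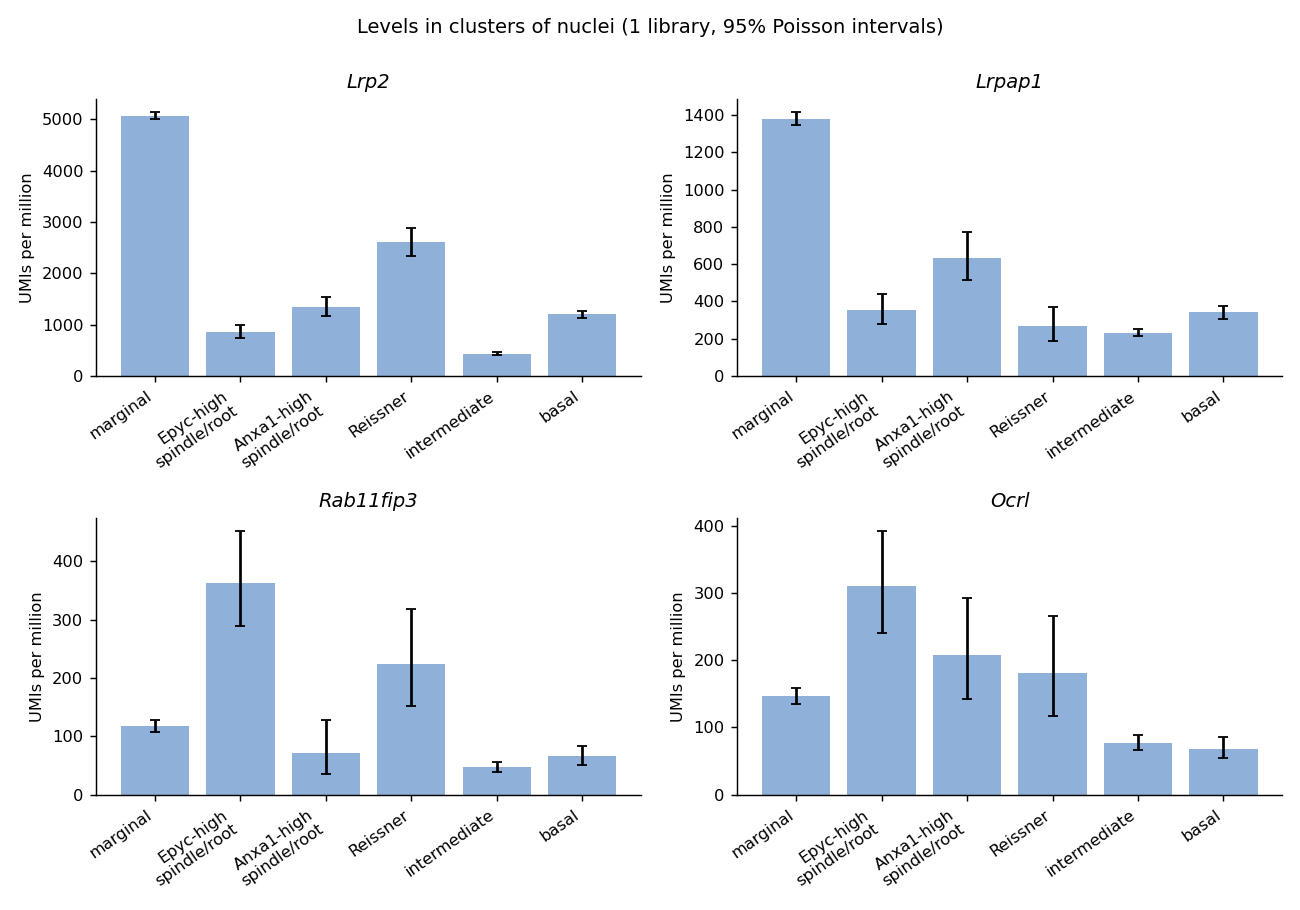
Levels of Lrp2, Lrpap1, Rab11fip3 and Ocrl in CPM in 6 clusters of nuclei, with 95% Poisson intervals, the basal bar being the larger basal cluster of 645 nuclei. Marginal nuclei have the tallest bars for Lrp2 and Lrpap1, and the Epyc-high spindle/root nuclei for Rab11fip3 (364 CPM) and Ocrl (310 CPM).

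Ocrl, which removes a phosphate from membrane phosphoinositides as vesicles shed their coats, was present at low levels in all 4 types. It was at 58.7, 55.1 and 41.1 CPM in marginal cells, 85.9, 49.4 and 72.6 in spindle/root cells, 23.4, 34.1 and 33.6 in intermediate cells and 29.0, 9.11 and 20.7 in basal cells. Marginal and spindle/root cells overlapped (log2 difference -0.30 ± 0.37), and both lay above basal cells, marginal cells by 1.66 ± 0.47 (edgeR adjusted p = 0.0032). The basal cells held only 9 Ocrl UMIs, 3 in each capture. The call of lower Ocrl in basal cells was lost without capture 2 (edgeR adjusted p = 0.20). It was also lost without the cells richest in intermediate markers (edgeR adjusted p = 0.16). The call of Ocrl in spindle/root cells (edgeR adjusted p = 0.043) was lost in 14 of 19 alternatives. In nuclei Ocrl was at 268 CPM (218 to 325) in spindle/root, 180 (117 to 266) in Reissner's membrane, 146 (135 to 158) in marginal, 77.2 (66.6 to 88.9) in intermediate and 73.3 (58.9 to 90.2) in basal nuclei, which put spindle/root above marginal nuclei beyond the counting intervals. Clcn5, the exchanger that helps to acidify endosomes, had 29 UMIs in marginal cells at 12.6, 28.2 and 14.5 CPM, against 9.88, 15.4 and 14.8 in intermediate, 38.7, 3.04 and 6.89 in basal and 49.1, 10.98 and 24.2 in spindle/root cells, all overlapping. Its nuclear levels of 36.2 CPM (30.8 to 42.3) in marginal, 31.3 (24.8 to 39.1) in intermediate, 29.6 (20.8 to 41.0) in basal and 53.0 (32.4 to 81.9) in spindle/root nuclei overlapped as well.

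The genes whose levels over the 12 sums were most like those of Lrp2, among 5018 tested genes that were not markers, were Prom2 (Pearson r = 0.993), Kcnk1 (0.991), Lrpap1 (0.988), Atp1b2 (0.988) and Gsc (0.987). Prom2 encodes a protein of membrane protrusions, Kcnk1 a potassium channel, Atp1b2 a subunit of the sodium pump and Gsc a homeobox factor. Atp1b2 averaged 4519 CPM in marginal, 1296 in spindle/root, 72.4 in intermediate and 53.1 in basal cells, and Prom2 averaged 591, 377, 51.2 and 27.0 CPM. In nuclei both were also highest in marginal nuclei, at 2187 and 366 CPM. The sums share captures and sequencing depth, so these correlations are a description. For Dab2 the most similar genes, Ctdspl (0.884), Capn7 (0.838), Qser1 (0.826), Shoc2 (0.7996) and Jak1 (0.799), rest on sums with few Dab2 UMIs or none.

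In 7 lists of 107 further endocytosis genes, of which 68 could be tested, genes moved in both directions. In marginal cells 10 of the 68 were higher and 11 lower, in intermediate cells 14 and 12, in basal cells 15 and 12, and in spindle/root cells 8 and 5. Of all tested genes, 17.6% were higher and 16.2% lower in marginal, 20.1% and 21.9% in intermediate, 18.4% and 16.7% in basal and 17.5% and 7.78% in spindle/root cells. Among the 6 tested members of the LDL receptor family besides Lrp2, 2 were higher and 2 lower in marginal cells. Sorl1, a sorting receptor, was at 306, 342 and 355 CPM in marginal cells and was higher by 5.32 ± 0.26 with 343 CPM over the spindle/root cells and 0 UMIs in basal cells. Lrp10 was higher in marginal cells by 0.74 ± 0.18, a call lost with types from marker UMIs (edgeR adjusted p = 0.052). Lrp1, the broad scavenger receptor, was a basal cell gene, at 223, 228 and 165 CPM and higher by 4.31 ± 0.28, and Lrp6, a Wnt co-receptor, was higher in basal cells by 0.98 ± 0.21. The call of Lrp6 was lost without capture 2 (edgeR adjusted p = 0.095). Vldlr was at 233, 242 and 137 CPM in spindle/root cells, higher by 3.34 ± 0.27, and lower in marginal cells.

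The coat, endosome and recycling lists can be read against the same shares of all genes. Of 16 clathrin coat genes tested, 1 was higher there, the kinase Aak1 (0.70 ± 0.19), and 3 were lower. In basal cells 4 were higher, including the light chain Cltb (1.34 ± 0.17) and the scaffold Eps15 (0.68 ± 0.26), in intermediate cells Hip1 (1.61 ± 0.31), and in spindle/root cells the light chain Clta (1.15 ± 0.17). Of 10 early endosome genes 1 was higher in marginal cells, while Appl2 (1.80 ± 0.15) and Pikfyve (1.23 ± 0.20) were higher in intermediate cells. Of 17 recycling genes 3 were higher in marginal cells, among them Ehd4 (1.33 ± 0.27) and Micall1 (0.92 ± 0.28), which binds EHD proteins, and 1 was lower. Rab11fip5 (1.61 ± 0.26) and Rab10 (0.46 ± 0.17) were higher in basal cells and Vps26a (0.62 ± 0.18) in intermediate cells. The basal calls of Rab10 and Eps15 (edgeR adjusted p = 0.033 and 0.037) were both lost with DESeq2, without a filter on low counts and without capture 2 or 3. The marginal calls of Aak1 and Micall1 were lost without capture 2 (edgeR adjusted p = 0.051 and 0.068). That of Vps26a in intermediate cells was lost without TMM scaling (edgeR adjusted p = 0.19). Of 5 other adaptors and motors 1 was higher in marginal cells, and none of them passed the rule for being named. Of 6 CLC exchanger and phosphatase genes 1 was higher in marginal cells, Clcn4 (0.91 ± 0.22), and 3 were higher in intermediate cells.

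Of 24 listed genes for megalin ligands and for the handling of its cargo, 8 could be tested. In marginal cells 1 of the 8 was higher, beside 17.6% of all tested genes, and 5 were lower, beside 16.2%. The 1 higher was Tcn2, the carrier of vitamin B12, at 248, 195 and 227 CPM (0.85 ± 0.16). In basal cells ceruloplasmin (Cp) was at 174, 310 and 421 CPM and higher by 4.14 ± 0.26. Selenoprotein P (Sepp1) was at 5176, 5484 and 5680 CPM in intermediate cells and higher by 2.48 ± 0.12. Plat, a plasminogen activator, was higher in spindle/root cells by 6.43 ± 0.47, with 184, 170 and 194 CPM there, and cystatin C (Cst3) was higher by 2.12 ± 0.14. Each gene named here from these lists also had its highest nuclear level among the 4 types in the type for which it is named, which the rule for naming it required. Some were called higher in another type as well: Lrp10, Tcn2 and Rab11fip5 in intermediate cells, Sorl1 in spindle/root cells and Clta in basal cells.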

How the data were processed

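The deposited files held UMI counts per gene and barcode, which the authors made with Cell Ranger 2.0.0 on mm10 according to the submitters' processing notes. Whether introns were counted in nuclei was not given in the sources used here. Barcodes with at least 200 genes were kept, the highest Scrublet scores (scanpy 1.11.5) were removed at 0.8% per 1000 barcodes, and cells and nuclei were clustered separately with Seurat 5.3.0 (2000 variable genes without members or list genes, 45 and 41 principal components, resolution 0.8). Clusters were named by 3 or more raised markers, and the naming rule was adjusted once clusters had been seen. Members and gene lists were chosen with earlier results of these data known. UMIs were summed per capture and type (at least 5 cells) and fitted with edgeR 4.0.16 (quasi-likelihood, TMM, filterByExpr, capture as replicate block, Benjamini-Hochberg adjustment over all genes tested). Sums of a capture share a suspension and were therefore paired, and their deviations from the type means correlated weakly (r 0.02 to 0.21). CPM is relative to all UMIs of a type, mitochondrial ones included. Intervals are exact Poisson and cover counting error. On simulated data for the marginal comparison (3987 genes), 74 of 82 2-fold and 81 of 82 4-fold changes were found, with 6 false among 161 calls. Named were all members, the 5 genes most correlated with Lrp2 or Dab2 on log2(CPM + 1), and per list and type up to 2 genes with the largest rise, in 3 of 3 captures and highest in the same type in nuclei. Some list and marker genes are not reported here by name.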

Additional observations from a re-analysis of the deposited data

Results flagged for a closer look

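For 3 differences called in cells, with the same sign in 3 of 3 captures, the values of the 1 nucleus library stood in the other order. The difference between cells and nuclei was not tested in any of them. Lrp2 was higher in intermediate than in basal cells (log2 fold change 1.91), while intermediate nuclei were at 432 CPM and basal nuclei at 1150 CPM. In some alternatives the order in cells was that of the nuclei. Without doublet removal the marginal lead was 5.71 over intermediate and 4.06 over basal cells. The lead over basal cells was also the smaller with 20 principal components, at least 500 genes, members allowed among variable genes, or types from marker UMIs. Lrp2 was far lower in basal than in spindle/root cells (-6.44), while basal nuclei were at 1150 and spindle/root nuclei at 1057 CPM, with overlapping counting intervals. The order of these nuclear values was that of the cells without removal of doublets (1424 and 1656 CPM) and with types taken from marker UMIs (917 and 1263 CPM), so an opposite order is not established for this pair. Ehd3 was lower in basal than in spindle/root cells (-1.09), while basal nuclei were at 146 and spindle/root nuclei at 82.2 CPM. Without removal of doublets spindle/root nuclei had Ehd3 at 142 CPM. Among cells with the lower shares of marginal marker RNA, basal cells had Ehd3 at 135, 234 and 145 CPM in the 3 captures and spindle/root cells at 28.4 and 19.6 CPM in captures 2 and 3. Lower Ehd3 in these spindle/root cells was built into the choice of cells.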

How the results depend on the processing

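Lrp2 stayed higher in marginal than in intermediate, basal and spindle/root cells in all 19 alternatives, and past the threshold in all but 1 of these tests. Among the 19, the alternative with less marginal RNA was added after the data were seen. It cannot bear on this, because lower Lrp2 outside marginal cells was built into its choice of cells. The member counts and signs given below for that alternative carry the same limit. With barcodes of at least 500 genes the lead of Lrp2 in marginal over spindle/root cells was 1.22 (edgeR adjusted p = 0.16). Its lead over basal cells was 4.06 without doublet removal, 4.11 with the members allowed among the variable genes, 4.28 with 20 principal components, 4.94 with types from marker UMIs and 4.58 at 500 genes, against 7.73 as reported, and the cause was not tested. Without the replicate block for capture, that lead was 7.68, and the only member call lost was Ehd3 in basal cells (-0.43, edgeR adjusted p = 0.053). Of the counts of members, the number higher in basal cells rose to 1 without a filter on low counts, where Dab2 could be tested, beside 1175 of 15400 genes. The number lower in basal cells was 2 with less intermediate RNA and 2 with less marginal RNA, and 2 to 3 when single captures were left out, with 2 without capture 2. Over all tested genes, 354 of 3513 and 367 of 5182 were lower in the first 2 settings. Without captures 1, 2 and 3 these were 835 of 6282, 496 of 3782 and 729 of 5307. The number higher in spindle/root cells was 2 with types taken from marker UMIs, 1 with less intermediate RNA and 1 with less marginal RNA, and 3 without each capture. Over all tested genes, 1136 of 7313, 510 of 3513 and 586 of 5182 were higher in the first 3 settings. Without captures 1, 2 and 3 these were 824 of 6282, 606 of 3782 and 673 of 5307. The number lower in spindle/root cells was 1 with less intermediate and 1 with less marginal RNA, beside 369 of 3513 and 417 of 5182 tested genes. Signs reversed for Ehd3 in basal cells (0.95 with less intermediate and 0.92 with less marginal RNA), Ehd3 in spindle/root cells (-3.19 and -3.13) and Eps15 in basal cells (-0.30 with less marginal RNA). The call of Ehd3 in basal cells was lost, with the sign kept, in 12 of 19 alternatives. Without TMM scaling the median of all genes shifted to -0.37 in intermediate, 0.21 in spindle/root and 0.11 in marginal cells, and the genes called higher and lower in intermediate cells changed from 1018 and 1105 to 603 and 2040, in marginal cells from 890 and 817 to 1081 and 623, and in spindle/root cells from 884 and 393 to 1134 and 252. Lrp2 in marginal nuclei was 4837 CPM without doublet removal. The shallow nuclei and the 39 spindle/root cells limit what can be seen of Cubn, Amn, Dab2 and Clcn5.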

Other observations

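Barcodes with almost no Malat1 held megalin RNA as well. Among the 1471 such cells Lrp2 was at 154 CPM (143 to 165) with a UMI in 25.3%, and among the 3669 such nuclei at 1022 CPM (997 to 1048) with a UMI in 70.0%. Lrpap1 was at 129 and 452 CPM and Ehd3 at 92.7 and 176 CPM in these cells and nuclei. Dab2 was at 0.773 and 2.29 CPM, Ocrl at 7.92 and 15.7 CPM and Rab11fip3 at 12.9 and 17.6 CPM. In these nuclei Ocrl and Rab11fip3 were below their levels in marginal, intermediate and basal nuclei. The median mitochondrial share of these barcodes was 59.2% in cells and 50.9% in nuclei, against 26.9% in marginal cells and 1.85% in marginal nuclei.

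Ehd1 had its highest level in blood-derived nuclei. It was at 106 CPM (64.7 to 164) in the 72 neutrophil nuclei, against 17.5 CPM (13.8 to 21.9) in marginal nuclei, while in the 28 neutrophil cells there were 6 UMIs (32.5 CPM, 11.9 to 70.8). Among the 92 nuclei of a cluster that was left unnamed Dab2 was at 53.0 CPM (30.3 to 86.1), with 16 UMIs.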
